A study of Mus musculus with 48 samples.

Results

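The cerebral cortex transcriptome of male mice carrying human APOE3 was compared between nPM and filtered air. Of the 48 mice of the study, 8 entered this comparison, 4 exposed (animals 53, 56, 58 and 76) and 4 controls (animals 51, 55, 63 and 73). Genes with at least 1 read in each of the 8 mice were kept, 16889 of the 18943 genes listed. All 8 mice were ApoE-TR males of genotype E3, in which human APOE3 replaces the mouse gene at its own locus, and the labels give an age of 6 months. They inhaled nPM, a re-aerosolized nano-sized fraction of urban particles, or filtered air, for 5 h per day on 3 days per week over 15 weeks. The other groups of the study were APOE3 females and APOE4 mice of both sexes, of the same age and under the same regimen, and C57BL/6J (B6) mice of both sexes, labelled with an age of 4 months and exposed for 8 weeks.

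Inhaled particles reach the brain only in small part, and the brain's vessels are in contact with whatever the lung releases into blood. Endothelial cells of the cortex form the blood-brain barrier and carry transporters for glucose and lipids. Chaperones are proteins that help others to fold, in the cytosol (heat shock proteins) or in the endoplasmic reticulum (ER), and their genes respond to many kinds of cell stress. NRF2 and NFKB are the transcription factors most often studied in responses to particles, for antioxidant and for inflammatory genes.

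Reads were recovered from the deposited CPM (read counts scaled to library size), and each mouse had 22.85 to 31.26 M reads on listed genes. Pearson's r between any 2 of the 8 mice, across genes on the log2 scale, was 0.9925 to 0.9973. Control 63 and nPM 76 lay at opposite ends of the first principal component (26.6% of variance), at -18.4 and 19.2. The sex labels matched the data, with Xist at 0.0839 to 0.272 CPM and the Y-linked Ddx3y at 28.5 to 38.2 CPM, against 90.3 to 910 and 0.0343 to 0.0481 CPM in APOE3 females. Mouse Apoe was at 8.81 to 12.2 CPM, below the 164 to 503 CPM of B6 mice. Markers of neighbouring tissue differed between mice: 7 choroid plexus markers summed to 1043 CPM in nPM 76 and 16.86 to 48.72 CPM in the other 7 mice, and 10 striatal markers to 1525 CPM in control 63 and 606.3 to 1257 CPM elsewhere. Pituitary growth hormone, Gh, was at 3.45 CPM in control 63 and at most 0.442 CPM elsewhere. The part of these tissues in the results was not tested. Results without control 63, nPM 76 or both are given for some genes and lists only, and other values also changed without them.

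The response of APOE3 males to nPM was small in number of genes and in size. At an unadjusted p under 0.005 in limma, the threshold the study used, 26 of 16889 genes (0.154%) were called, 16 of them increased (0.0947%) and 10 decreased (0.0592%). No gene passed 5% FDR, and the smallest adjusted p of the limma fit was 1. At an unadjusted p under 0.05, 380 genes (2.25%) were called, 223 higher (1.32%) and 157 lower (0.93%). Counts of genes under 0.05 or 0.005 refer to this unadjusted limma p. Single genes are given with the p of a two-sided exact permutation test of their log2 values over the 70 labelings of 8 mice, called exact p, which cannot go below 0.0286. Evenly spread p-values would have put 84 genes under 0.005 and 844 under 0.05, so both counts were below that. With edgeR's quasi-likelihood test on recovered reads, 26 genes were under 0.005 and 390 under 0.05, and with DESeq2 35 and 266, and neither passed any gene at 5% FDR. These were partly other genes: of the 26 called in limma, 21 were under 0.005 in edgeR and 13 in DESeq2.

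The absolute log2 changes of the 26 called genes were 0.18 to 0.78, on the scale of log2(CPM + 0.5), which understates changes of genes below about 1 CPM. In 24 of the 26 the values of the 4 nPM mice did not overlap those of the 4 controls, against 262 (1.55%) of all genes, 133 (0.787%) above and 129 (0.764%) below. The exceptions were Slc2a1 and Hspb1. The 26 genes were called on these same values, so their count is no test, and an exact p of 0.0286 restates this separation. Random labels would separate the groups, in either direction, with a probability of 0.0286, which is above the share of all genes. Mean levels were under 1 CPM in 13 of the 26, and 10 had fewer than 10 reads in some mouse. Just beyond the threshold, 34 further genes had p from 0.00509 to 0.0094, 23 of them higher, with absolute changes of 0.17 to 0.57. On the same log2(CPM + 0.5) scale, the 95% interval of the change lay within 1.5-fold in either direction for 97.1% of all genes. For 99.6% it lay within 2-fold. Only Kcnj13, a potassium channel of choroid plexus, had a fitted change beyond 2-fold, of 1.04 in log2 with an exact p = 0.0857. It was at 11.8 CPM in nPM 76 and at 0.7 to 1.5 CPM in the other 7 mice.

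**Figure D1:**
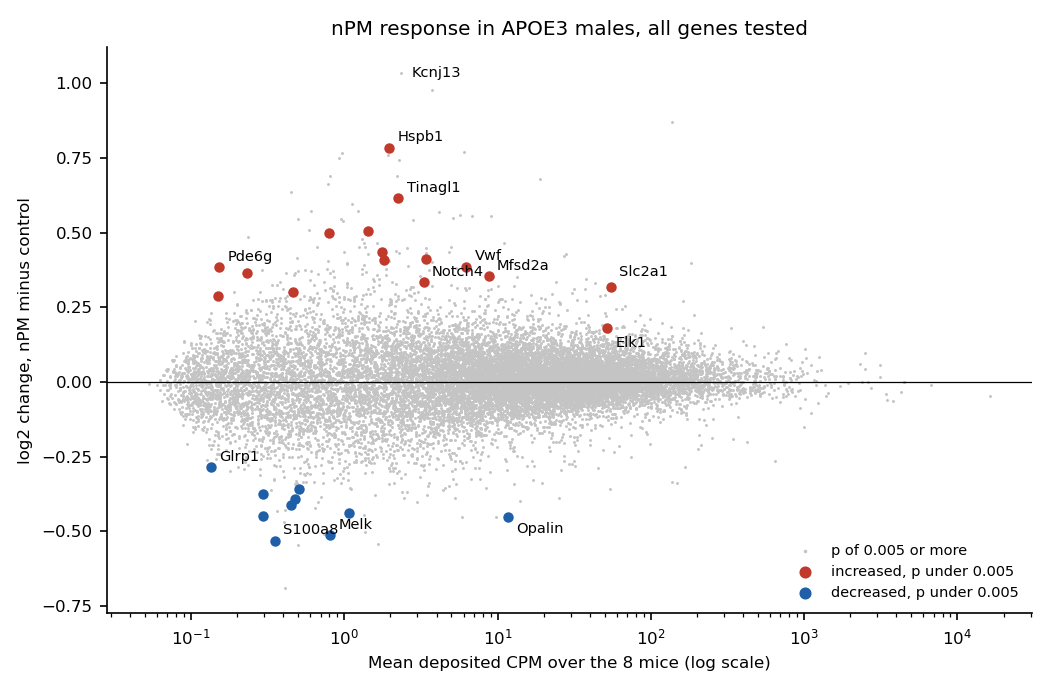
Each point is 1 of the 16889 genes tested, with its mean deposited CPM over the 8 mice (x axis, log scale) and its log2 change, nPM minus control (y axis). Red and blue points are the 16 increased and 10 decreased genes with a limma p under 0.005, which lie between -0.53 and 0.78.

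Of the 16 increased genes 7 are known from vessels or were described with them here, a grouping made after the calls were seen and not tested. Slc2a1 (chr4:119108745-119137331 in mm10) encodes GLUT1, the glucose carrier of the blood-brain barrier. Control mice had 57, 44.4, 45.1 and 48.8 CPM and nPM mice 60, 54.7, 62.9 and 64.5 CPM, in order of animal number. Control 51 exceeded nPM 56, and the other 3 controls lay below every nPM mouse. The increase was 0.32 ± 0.08 in log2 (limma SE, n = 4 and 4 mice, exact p = 0.0571).

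Mfsd2a (chr4:122946850-122961189), which carries lysolipids with docosahexaenoic acid across the same barrier, was at 8.28, 8.65, 7.35 and 6.39 CPM in controls and at 9.76, 9.91, 10 and 9.62 CPM in nPM mice. The 4 nPM mice lay close together and above all controls, with an increase of 0.35 ± 0.10 (exact p = 0.0286). Vwf (chr6:125552948-125686680), the von Willebrand factor made by endothelium, was at 5.24 to 5.46 CPM in controls and at 6.46, 9.08, 6.61 and 6.53 CPM in nPM mice. The increase was 0.39 ± 0.11 (exact p = 0.0286), and it was 0.27 without nPM 56, which stood above the other exposed mice.

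Notch4 (chr17:34564295-34588544), a Notch receptor of endothelium, was at 3.15, 2.79, 2.62 and 2.86 CPM in controls and 3.85, 3.36, 3.64 and 4 CPM in nPM mice, an increase of 0.34 ± 0.10 (exact p = 0.0286). Ccm2l (chr2:153065955-153081736), a relative of the cavernous malformation gene Ccm2, was at 1.77, 1.18, 1.13 and 1.62 CPM against 1.94, 1.99, 2.22 and 2.14 CPM, an increase of 0.44 ± 0.12 (exact p = 0.0286). The groups of both genes did not overlap. Tinagl1 (chr4:130165600-130175123), an extracellular matrix protein found in vessel walls, was at 1.65, 1.52, 1.93 and 1.54 CPM in controls and 2.03, 3.09, 2.57 and 3.7 CPM in nPM mice. Its increase was 0.61 ± 0.15 (exact p = 0.0286), and 0.50 without nPM 76, the highest mouse. Adcy4 (chr14:55769092-55784020), an adenylyl cyclase, was at 1.41, 0.931, 0.923 and 1.15 CPM against 1.59, 2.09, 1.58 and 1.78 CPM, an increase of 0.50 ± 0.12 (exact p = 0.0286).

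Endothelial genes outside the called set had smaller changes. Of 8 endothelial markers 7 were higher, with a median log2 change of 0.11, against 53.3% of all genes higher and a median over all genes of 0.006. Only Ly6c1 among them was under 0.05. It was at 18.9, 16.4, 16.7 and 17 CPM in controls and 18.6, 19, 24.3 and 22.3 CPM in nPM mice, with overlap between control 51 and nPM 53 (0.28, exact p = 0.0571).

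Of 30 further endothelial and blood-brain barrier genes, a list added after values were seen, 26 were higher (median 0.11). Podxl, the surface sialomucin podocalyxin, was at 32.6, 24, 30.7 and 33.2 CPM in controls and at 34.5, 38.8, 35.4 and 35.9 CPM in nPM mice (0.27, exact p = 0.0286). Robo4, a guidance receptor of endothelium, was at 0.32 (exact p = 0.143), while the monocarboxylate carrier Slc16a1 was lower, at -0.27 (exact p = 0.0857). Control 55 had the lowest level of these genes. Its 8 endothelial markers summed to 103.7 CPM, against 132.9 to 145.5 CPM in the other controls and 136 to 149.4 CPM in nPM mice. Without it 5 of the 8 markers (median 0.02) and 22 of the 30 further genes (median 0.07) were higher. In bulk RNA, more or fewer cells of a type and more or less RNA per cell cannot be told apart.

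**Figure D2:**
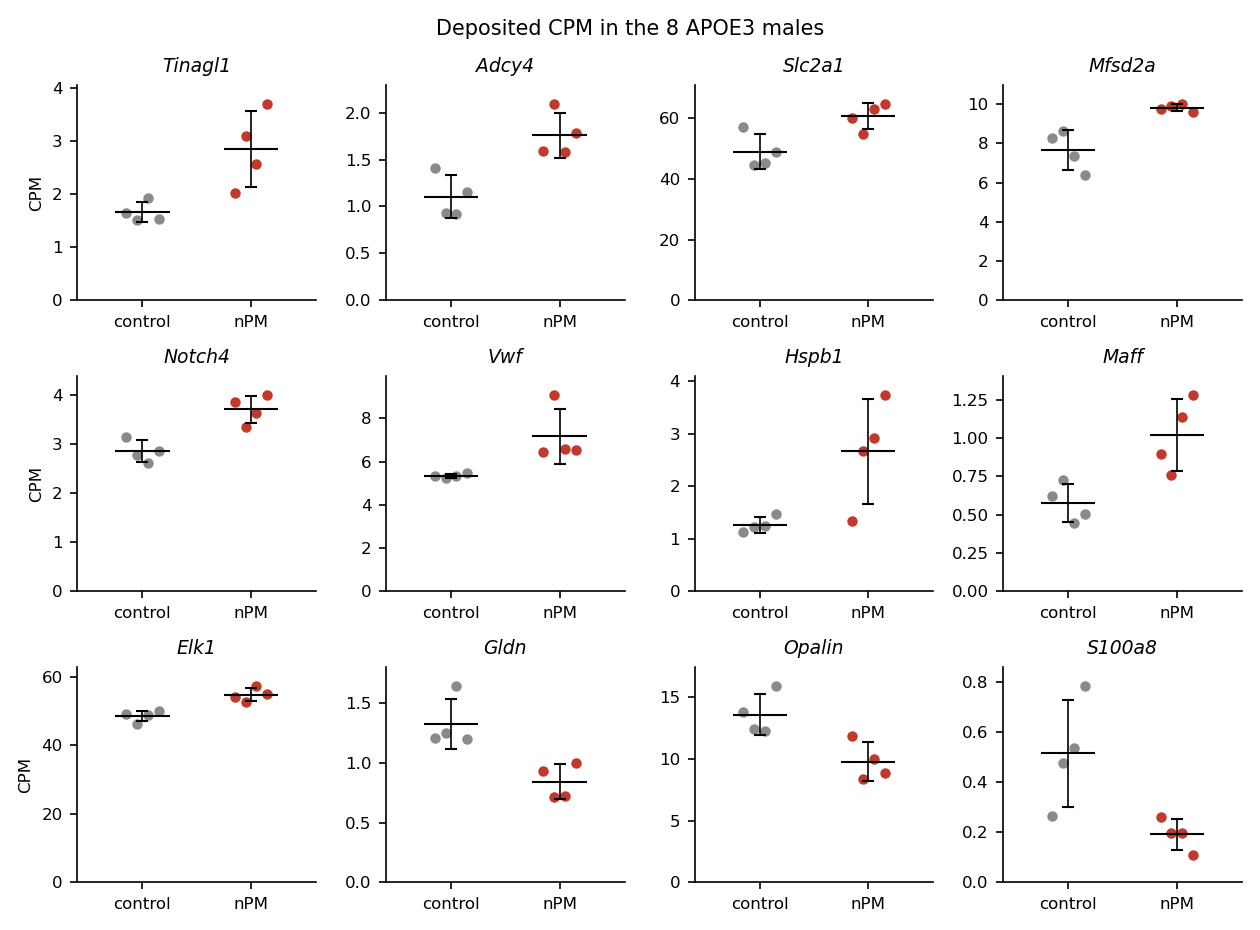
Deposited CPM (y axes, from 0) of 12 genes in the 4 control (grey) and 4 nPM (red) APOE3 males, with 1 point a mouse, ordered by animal number from left to right in each group. Lines are means and bars SD. The groups do not overlap in any panel but those of Slc2a1 and Hspb1, where control 51 lies above nPM 56 and control 73 above nPM 53, respectively.

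Chaperone genes were higher under nPM as a group, in 3 of the 4 exposed mice. All 20 genes of a list of heat shock and unfolded protein response genes had a log2 change above 0, from 0.001 (Atf4) to 0.78 (Hspb1), with a median of 0.18. Of these, 8 were under 0.05 and only Hspb1 under 0.005, against 1.32% and 0.0947% of all genes in that direction. Like the other lists, this list was chosen with earlier results of these data known, so these counts are a description and no test. In none of the 20 did all nPM mice lie above all controls. The mean of the list, as log2 relative to the mean of the 8 mice, was -0.21, 0.02, -0.19 and -0.13 in controls 51, 55, 63 and 73. In nPM mice it was -0.19 in mouse 53 and 0.13, 0.20 and 0.36 in mice 56, 58 and 76, so mouse 53 lay among the controls and the others above all of them.

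Hspb1 (chr5:135887919-135889564) encodes HSP27, a small heat shock protein that binds unfolded proteins and actin. It was at 1.12, 1.23, 1.25 and 1.48 CPM in controls and at 1.33, 2.67, 2.92 and 3.73 CPM in nPM mice. The increase of 0.78 ± 0.21 (exact p = 0.0571) was the largest among the called genes. It was 1.03 without nPM 53 and 0.62 without nPM 76.

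Of the ER members under 0.05, Hspa5, Sdf2l1, Pdia4 and Hyou1 ranked the nPM mice alike, with mouse 53 lowest and mouse 76 highest. Hspa5, the main chaperone of the ER (BiP), was at 136, 173, 156 and 156 CPM in controls and at 140, 188, 235 and 276 CPM in nPM mice (0.40 ± 0.17, exact p = 0.171), and its change was 0.25 without nPM 76. Sdf2l1, an ER protein that works with BiP, was at 4.8, 6.63, 4.85 and 4.73 CPM against 4.81, 6.75, 9 and 12.7 CPM (0.55, exact p = 0.0857). Pdia4, a disulfide isomerase, was at 19.8, 28.7, 24.2 and 21.9 CPM against 22.4, 31.1, 34.6 and 41 CPM (0.43, exact p = 0.0857). In each of these 3 genes mice 58 and 76 were above every control, and mouse 53 was below control 55. Hyou1, a large ER chaperone, was at 55.4, 61.1, 59.6 and 59.9 CPM against 58.7, 67.5, 75.7 and 77.7 CPM (0.24, exact p = 0.114). Creld2, secreted under ER stress, was at 5.16, 6.79, 5.39 and 5.6 CPM against 5.65, 7.14, 7.03 and 9.37 CPM (0.32, exact p = 0.0571).

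In the cytosol and mitochondria, Hspa1b was at 3.8, 5.18, 3.01 and 4.03 CPM in controls and 3.33, 6.09, 7.24 and 8.45 CPM in nPM mice (0.55, exact p = 0.143). Its near-identical copy Hspa1a was at 0.43 (exact p = 0.2), and how reads were split between these copies is uncertain. Hspe1, the mitochondrial co-chaperone HSP10, was at 18.2, 21.6, 17.5 and 19 CPM against 21.2, 22.3, 20.9 and 21.4 CPM (0.17, exact p = 0.114). Its change was smaller than those of the ER genes, and control 55 alone lay within the nPM range.

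Wider lists, added after these values were seen, leaned less. Of 24 further ER chaperone and stress genes 21 were higher (median 0.07). Pdia6, a disulfide isomerase (0.29, exact p = 0.0857), and Derl3, of ER-associated degradation (0.33, exact p = 0.114), were under 0.05. Of 20 further cytosolic chaperones and partners 18 were higher (median 0.04), and none was under 0.05 in limma.

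The count of chaperone genes under 0.05 depended on single mice. From 8 it went to 2 without control 51, to 3 without control 63 and to 2 without control 73. It went to 14 without nPM 53, to 5 without nPM 56, to 3 without nPM 58 and to 2 without nPM 76, and it was 1 without control 63 and nPM 76 together. Under every setting 18 to 20 of the 20 were higher.

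**Figure D3:**
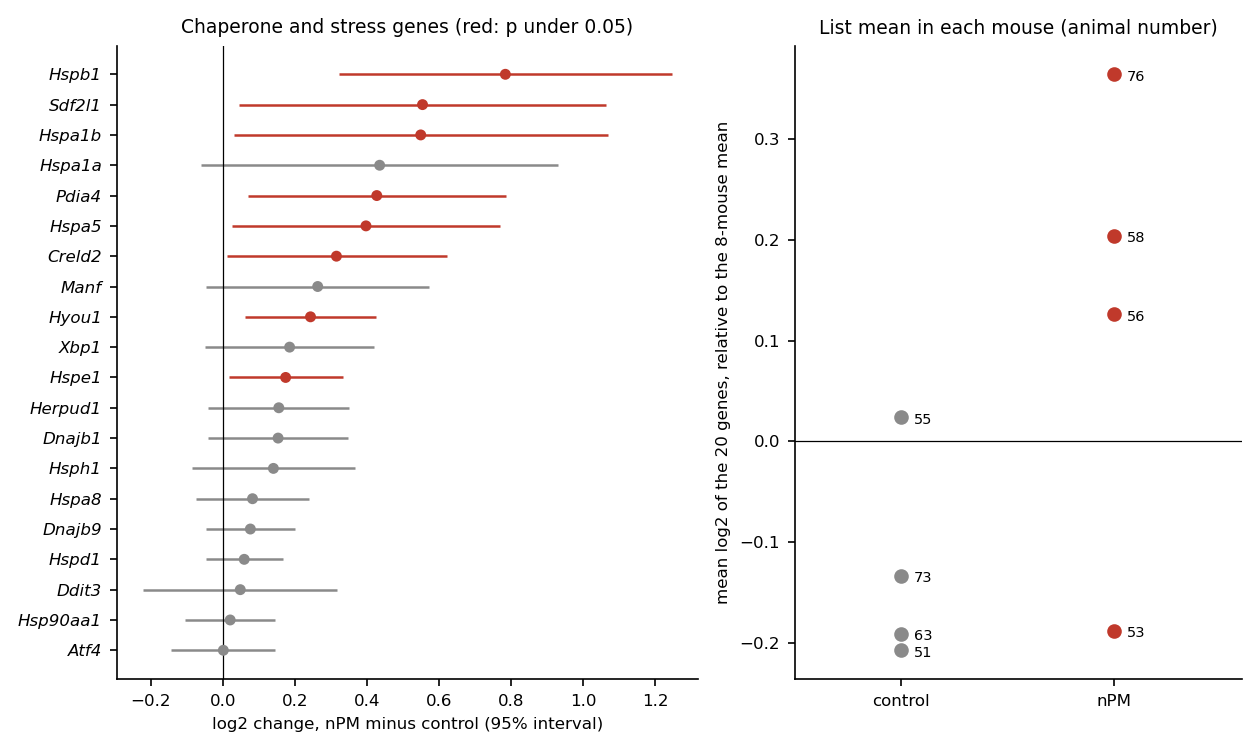
Left, log2 change (x axis, nPM minus control) with its 95% interval for 20 heat shock and unfolded protein response genes, red where the limma p was under 0.05. Right, the mean log2 of these genes in each mouse, relative to the mean of the 8 mice (y axis), with nPM 53 at -0.19 among the controls and nPM 76 highest at 0.36.

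Promoters of this list were searched for the response elements that define the ER and the heat shock branches, since both kinds of chaperone were higher. The ER stress response element was searched as CCAAT and CCACG with any 9 bases between, and the heat shock element as GAA, TTC and GAA with any 2 bases between neighbours, on both strands, from 250 bases before to 50 after each RefSeq start (GRCm38.p6). Of the 20 genes 16 had a promoter entry, and Hsp90aa1, Hspa8, Hyou1 and Manf had none. The first element was found in 2 of the 16 (12.5%), Hspa5 and Creld2, and in 0.137% of all 27025 genes with a promoter. The second was found in 3 of the 16 (18.8%), Hsph1, Hspd1 and Hspe1, and in 0.662% of all genes. The 150 bases before the start of 3 genes that carry a match are shown 5′ to 3′ on the + strand, with the matched bases in capitals, since these genes were among the 8 under 0.05. A match describes letters in the window and not a bound factor.
Hspa5, chr2:34771940-34772089: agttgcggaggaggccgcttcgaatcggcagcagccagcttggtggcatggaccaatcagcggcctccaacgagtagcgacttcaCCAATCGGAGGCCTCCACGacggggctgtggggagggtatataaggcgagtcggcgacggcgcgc
Creld2, chr15:88819496-88819645: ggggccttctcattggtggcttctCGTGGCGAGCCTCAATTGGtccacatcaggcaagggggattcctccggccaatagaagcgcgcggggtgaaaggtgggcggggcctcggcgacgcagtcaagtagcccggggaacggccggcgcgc
Hspe1, chr1:55087998-55088147: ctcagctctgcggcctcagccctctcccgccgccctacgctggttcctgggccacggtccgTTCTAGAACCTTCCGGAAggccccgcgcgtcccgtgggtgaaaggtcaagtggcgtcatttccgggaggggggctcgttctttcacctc

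The element of Hspa5 began 65 bases before the start. In Creld2 it began 126 bases before the start and was read on the opposite strand. In Hspe1 the capitals hold 2 overlapping matches from 89 bases before the start, in the window shared with the divergent gene Hspd1. Among the 24 further ER genes 7 of 19 with a promoter entry (36.8%) had the first element, and among the 20 further cytosolic genes 2 of 17 (11.8%) had the second.

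Several called genes are transcription factors or belong to signalling pathways. Gli2 (chr1:118834061-119053620), the transcription factor of Hedgehog signalling, was at 2.89, 2.68, 3.01 and 2.94 CPM in controls and at 3.53, 3.66, 4.22 and 4.53 CPM in nPM mice. The increase was 0.41 ± 0.10 (exact p = 0.0286), without overlap between the groups. Hhat (chr1:192512828-192771220), the acyltransferase that attaches palmitate to Hedgehog ligands, was at 0.678, 0.681, 0.536 and 0.532 CPM in controls and at 0.348, 0.344, 0.395 and 0.278 CPM in nPM mice. It fell by 0.39 on the log2 scale (SE 0.09, exact p = 0.0286), again without overlap, on as few as 9 reads in a mouse.

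Six5 (chr7:19094544-19098346), a homeobox factor, was at 1.39, 1.73, 1.4 and 1.46 CPM in controls and 1.85, 2.09, 2.15 and 2.45 CPM in nPM mice (0.41 ± 0.10, exact p = 0.0286). Elk1 (chrX:20933395-20950609), a target of MAP kinases that acts with serum response factor, had the smallest change of the called genes. It was at 49.1, 46.3, 48.9 and 49.9 CPM in controls and 54.1, 52.7, 57.3 and 54.9 CPM in nPM mice (0.18 ± 0.05, exact p = 0.0286), and the groups did not overlap. The other 14 of 15 JNK signalling genes were between -0.03 and 0.09 in log2 and none was under 0.05 in limma.

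Among NRF2 regulators only the small Maf factor Maff was called. Maff (chr15:79346621-79359077) pairs with NRF2 or represses its sites, and was at 0.619, 0.727, 0.447 and 0.504 CPM in controls and 0.898, 0.761, 1.14 and 1.28 CPM in nPM mice. The increase was 0.50 ± 0.13 (exact p = 0.0286), with nPM 56 just above control 55. Nfe2l2, which encodes NRF2, was at 12.6, 12.5, 12.2 and 12.5 CPM in controls and at 12.8, 14.4, 12.3 and 14.1 CPM in nPM mice (0.11, exact p = 0.143), with nPM 58 inside the control range. Mafg was at 0.18 (exact p = 0.143), and at 0.10 without control 63. Of 27 NRF2 targets 12 were higher and 15 lower (median -0.01), and none was under 0.05 in limma. The smallest p among them was that of Osgin1, an oxidative stress-induced growth inhibitor (0.23, exact p = 0.171).

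In NFKB signalling the inhibitor Nfkbia had the smallest p. Nfkbia encodes IκBα and is itself switched on by NFKB, and it was at 9.73, 7.56, 6.91 and 8.43 CPM in controls and 10.8, 9.37, 11.4 and 10.1 CPM in nPM mice. Control 51 lay above nPM 56, and the increase of 0.35 ± 0.11 (exact p = 0.0571) missed the threshold of 0.005. Of the 20 NFKB subunits and regulators 11 were higher (median 0.02), with Nfkb2 at 0.20 (exact p = 0.114), which was 0.11 without nPM 76. Of 22 NFKB targets 15 could be tested and 10 of them were higher (median 0.02). Birc3, an inhibitor of apoptosis, was under 0.05, at 1.62 to 1.91 CPM in controls and 2.43, 2.41, 2.33 and 1.78 CPM in nPM mice (0.27, exact p = 0.0857). The cytokines Il1b (0.005), Il6 (0.02) and Ccl2 (-0.03) had changes near 0, on few reads. Tnf had no read in some mice and at most 4 reads in any.

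The called genes that were lower included Opalin, Gldn, Melk and S100a8. Opalin (chr19:41063420-41077114), a membrane protein of myelinating oligodendrocytes, was at 13.8, 12.4, 12.3 and 15.9 CPM in controls and at 11.9, 8.39, 10 and 8.84 CPM in nPM mice. It fell by 0.45 on the log2 scale (SE 0.12, exact p = 0.0286), and every nPM mouse was below every control. Gldn, gliomedin, which clusters sodium channels at nodes of Ranvier, was at 1.21, 1.25, 1.64 and 1.2 CPM against 0.927, 0.712, 0.724 and 1 CPM, and fell by 0.44 (SE 0.11, exact p = 0.0286).

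Myelin genes other than Opalin were lower by little. Of 8 oligodendrocyte markers 7 were lower, with a median of -0.05, while 53.3% of all genes were higher. Only Mog, of the outer myelin surface, was under 0.05 (-0.19, exact p = 0.0857), against 0.93% of all genes in that direction. Mog was at 39.1 to 45.5 CPM in controls and at 38.4, 33, 43.3 and 34.7 CPM in nPM mice, with overlap. The markers summed to 3145 to 4013 CPM in controls and 3044 to 3925 CPM in nPM mice. Of 20 further myelinating oligodendrocyte genes, also listed after values were seen and sharing Mbp with the markers, 17 were lower (median -0.04), and only Aspa, aspartoacylase, was under 0.05 (-0.25, exact p = 0.114). The 7 precursor markers had a median of 0.007.

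Melk (chr4:44300917-44364676), a kinase of dividing progenitors, was at 0.855, 1.25, 1.19 and 0.868 CPM in controls and at 0.637, 0.663, 0.681 and 0.334 CPM in nPM mice. It fell by 0.51 (SE 0.14, exact p = 0.0286), and by 0.40 without nPM 76. S100a8 (chr3:90669071-90670035), a subunit of calprotectin from neutrophils, was at 0.265, 0.477, 0.536 and 0.784 CPM in controls and 0.261, 0.196, 0.198 and 0.111 CPM in nPM mice. It fell by 0.53 (SE 0.14, exact p = 0.0286), on 3 to 27 reads, and control 51 and nPM 53 were nearly level.

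S100a9, its partner, was at 0.236, 0.84, 0.566 and 1.15 CPM in controls and at 0.319, 0.491, 0.263 and 0.111 CPM in nPM mice. The groups overlapped, and the change was -0.55 ± 0.22 (exact p = 0.143). Without control 73 it was -0.37. The other 6 of 8 neutrophil markers had no read in at least 1 mouse, and they did not share a direction. Lcn2, lipocalin 2, was at 0.395 and 0.361 CPM in nPM 58 and nPM 76 and at most 0.159 CPM in the other 6 mice. Ltf, lactoferrin, was at 0.571 CPM in nPM 58 and at most 0.295 CPM in the other 7. The 8 summed to 0.855 to 3.22 CPM in controls and 0.806 to 1.73 CPM in nPM mice.

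S100a9 is among 5 amyloid clearance genes that the study picked from these libraries, which are thus not independent evidence of direction. Vav2, an exchange factor of phagocytosis, was at 8.81, 7.9, 7.59 and 8.54 CPM in controls and at 9.24, 10, 8.96 and 9.48 CPM in nPM mice, all above the controls (0.20, exact p = 0.0286). C3ar1, a receptor for a complement fragment, was at -0.11 (exact p = 0.343). Vav3 (-0.03) and complement C3 (-0.25) had a limma p above 0.5. Of 21 amyloid and tau genes 12 were higher and 9 lower (median 0.01), and none was under 0.05 in limma. App, the amyloid precursor, was at 964 to 1160 CPM in controls and 931 to 1020 CPM in nPM mice (-0.06, exact p = 0.4), and tau, Mapt, at 457 to 487 and 458 to 508 CPM (0.03).

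The remaining called genes were low in level. Pde6g, a phosphodiesterase subunit known from photoreceptors, had the smallest limma p of all genes and was at 0.059, 0.0908, 0.0595 and 0.056 CPM in controls and 0.319, 0.221, 0.198 and 0.222 CPM in nPM mice. These are 1 to 10 reads per mouse, and the change was 0.39 ± 0.08 (exact p = 0.0286). The small nucleolar RNA Snora73a (0.37), E030013I19Rik (0.30) and Odf3l2 (0.29) were also higher. 2310002D06Rik (-0.41), Fbxl13 (-0.45), Glrp1 (-0.29), Adgb (-0.36) and Gm11837 (-0.38) were lower. Each of these 8 had limma p under 0.005 and at most 27 reads in any mouse.

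Among lists for other pathways, only that of hypoxia genes separated the groups by its mean level. The mean of its 16 genes, as log2 relative to the mean of the 8 mice, was -0.003, -0.02, -0.05 and -0.07 in controls 51, 55, 63 and 73 and 0.006, 0.03, 0.09 and 0.02 in nPM mice 53, 56, 58 and 76. Their CPM summed to 801.7 to 815.4 in controls and 819.2 to 883 in nPM mice, so the groups lay next to each other without overlap. In none of the 16 genes did all nPM mice lie above all controls. Slc2a1, called on these same values, is a member, and the level of the list without it was not tested. The list was singled out by this separation after the values of all lists were seen. Of these 16 genes 12 were higher (median 0.06), and 3 were under 0.05, against 1.32% of all genes in that direction. These were Slc2a1, Ddit4, an mTOR inhibitor (0.19, exact p = 0.0571), and Epas1, which encodes HIF2A (0.14, exact p = 0.0571). Without control 63, Ddit4 was at 0.122 and Epas1 at 0.096. Of 18 AMPK signalling genes 16 were higher (median 0.05), with none under 0.05 in limma and Prkag2, a regulatory subunit, at the smallest p (0.13, exact p = 0.143). Of 10 aryl hydrocarbon receptor genes tested 7 were higher (median 0.08), again with none under 0.05. Immediate early genes were lower in 15 of 21, with a median of -0.13. This was farther from 0 than the medians of the hypoxia, AMPK and aryl hydrocarbon receptor lists. However, the mean of the immediate early list was -0.709 in nPM 58 and 0.017, 0.141 and 0.305 in nPM 53, 56 and 76. In controls it was -0.155 to 0.349. No gene of this list was under 0.05 in limma, and Nr4a2, an orphan nuclear receptor, had the smallest p (-0.34, exact p = 0.286). Its values, 17 to 24.6 CPM in controls and 10.3 to 24.3 CPM in nPM mice, overlapped.

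Synaptic and guidance lists held 1 gene each under 0.05. These were the NMDA receptor subunit Grin2c among 22 glutamate receptors (0.19, exact p = 0.114) and the semaphorin receptor Plxna3 among 29 semaphorins and plexins (0.14, exact p = 0.0286). Medians of these lists were -0.001 and 0.045. Of 75 nuclear genes of oxidative phosphorylation 50 were lower (median -0.02), and only Ndufa12, of complex I, was under 0.05 (-0.27, exact p = 0.143). Of 82 ribosomal protein genes tested 49 were lower (median -0.01). In the circadian clock (11 of 18 higher), ephrin (11 of 22), complement (8 of 16), interferon and antigen presentation (7 of 20), metal and iron (8 of 14) and CaMKII (1 of 4) lists no gene was under 0.05 in limma.

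Markers of most cell types were near 0. Medians were -0.003 for neurons, -0.02 for astrocytes, 0.02 for microglia, 0.07 for mural cells, -0.075 for meningeal fibroblasts, -0.05 for ependyma, -0.02 for cortical layers and 0.007 for interneurons. Choroid plexus markers had a median of 0.57 with nPM 76 far above the rest, where transthyretin, Ttr, was at 972 CPM against 9.51 to 38.3 CPM in the other 7 mice. Striatal markers were lower in 10 of 10 (median -0.26), and control 63 had the highest sum. Olfactory bulb markers had a median of 0.29, and summed to 25.8 CPM in nPM 76 and 4.70 to 10.5 CPM elsewhere. The 5 red blood cell markers had a median of 0.21, with sums of 35.2 to 97.3 CPM in controls and 22 to 114.6 CPM in nPM mice. Dentate (-0.003) and thalamic (-0.17) markers, and the markers of pituitary (1 tested, -0.17), skeletal muscle (3 tested, -0.045) and lymphocytes (2 tested, 0.19), held only Cd79b, of B cells, under 0.05. It had as few as 1 read in a mouse.

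**Figure D4:**
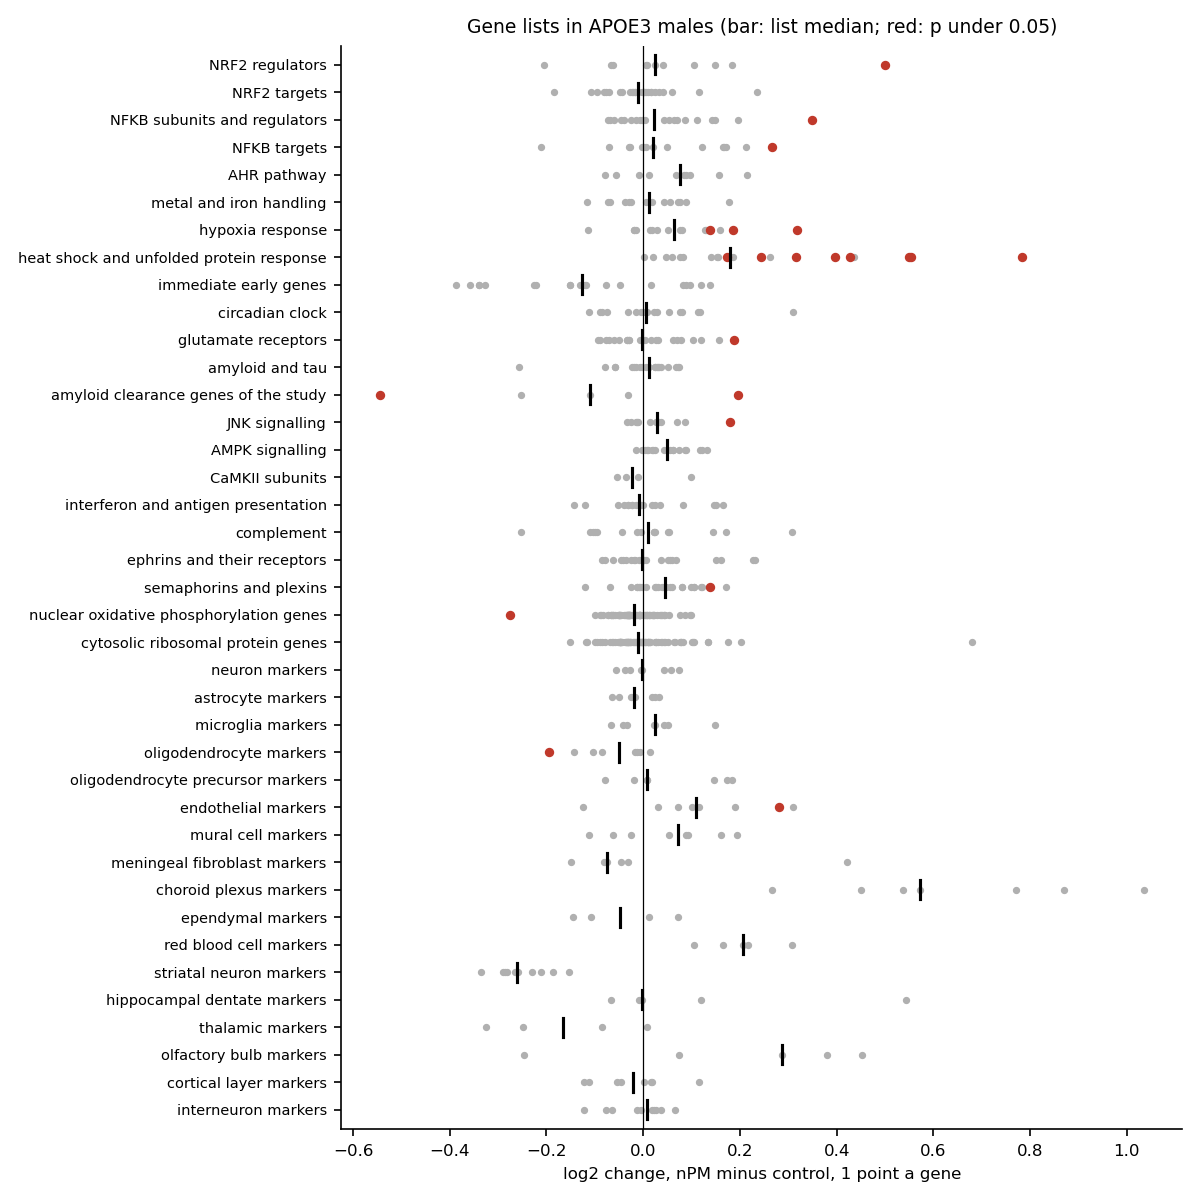
Log2 change (x axis, nPM minus control) of the tested members of each gene list in APOE3 males, 1 point a gene, red where the limma p was under 0.05. Black bars are list medians, 0.18 for heat shock and unfolded protein response genes and 0.57 for choroid plexus markers, which were far higher in nPM 76 than in other mice.

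In no other group did a called gene move the same way at p under 0.005. APOE4 males shared the sign of the change for 21 of the 25 genes tested in them, 14 of 16 that were increased and 7 of 9 that were decreased in APOE3 males. Their changes were smaller, with medians of 0.07 and -0.08, and 1 of the 21 was under 0.05, against 4.18% of all genes in APOE4 males. The genes were chosen for a small p in APOE3 males, so smaller changes in another group are no test of a weaker response. In APOE3 females 12 of 25 had the same sign, in APOE4 females 9 of 25, in B6 males 2 of 9 and in B6 females 3 of 6. The share of all genes that agree in sign between groups is not given here, so these counts are a description and no test. The number of genes under 0.005 was 30 (0.178%) in APOE4 males, 110 (0.672%) in APOE3 females, 43 (0.26%) in APOE4 females, 37 (0.241%) in B6 males and 174 (1.18%) in B6 females. B6 mice differed also in age, in the length of exposure and in their table.

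In APOE4 females several of the vessel genes were lower under nPM. Slc2a1 was at -0.25 ± 0.06, Mfsd2a at -0.34 ± 0.14, Vwf at -0.54 ± 0.17 and Ly6c1 at -0.55 ± 0.16 in log2, each with an adjusted limma p of 0.753. Of the 8 endothelial markers 1 was higher in these females (median -0.34, against 50.2% of all genes), and 3 were lower at under 0.05, against 2.77% of all genes. Of the 30 further endothelial genes 3 were higher (median -0.21). The difference between these females and APOE3 males was not tested. In APOE3 females and APOE4 males the medians of the 8 markers were 0.12 and 0.04.

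**Figure D5:**
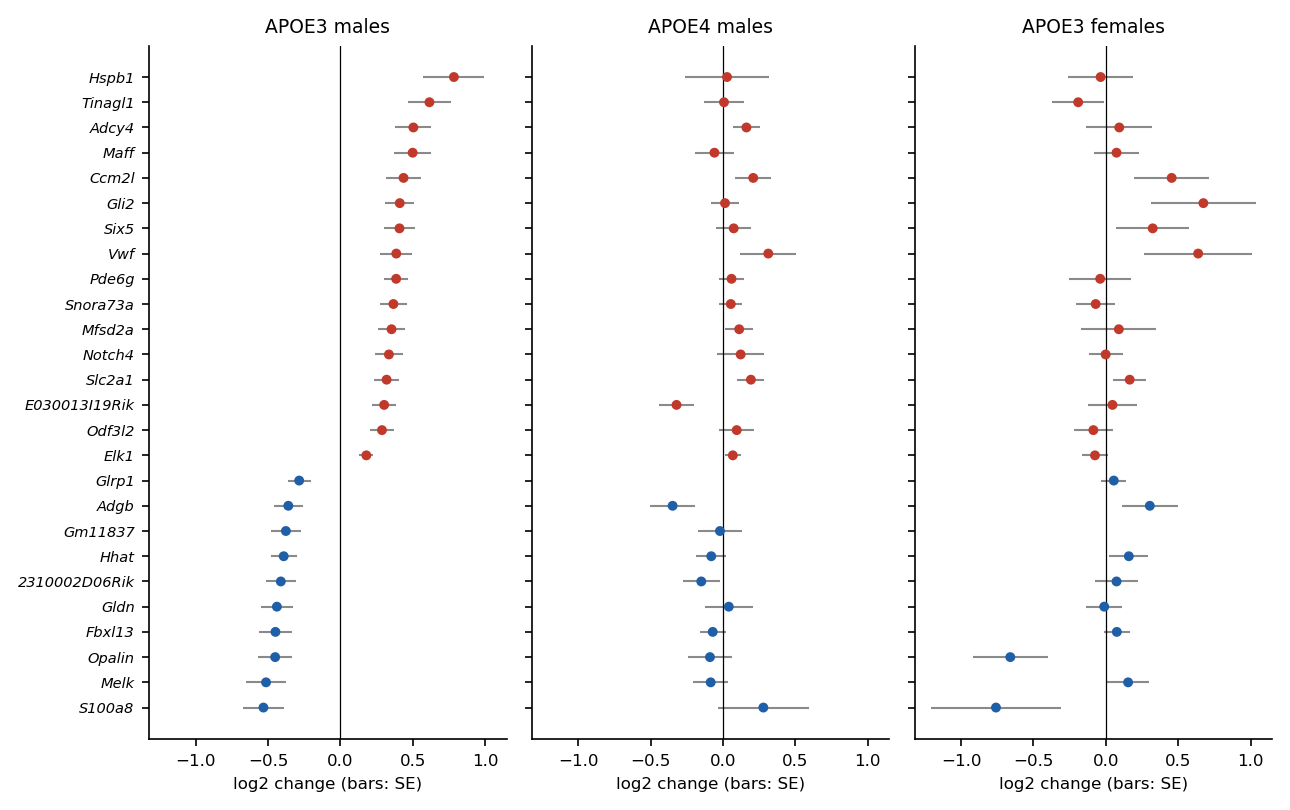
Log2 change (x axes, nPM minus control, bars SE) of the 26 genes called in APOE3 males, in that group and in APOE4 males and APOE3 females (n = 4 and 4 mice in each). The genes were chosen on the left panel, and 1 gene in each other panel was not tested (Glrp1 in APOE4 males, Gm11837 in APOE3 females). Most points lie nearer 0 in APOE4 males, while Opalin, S100a8, Gli2 and Vwf lie farther from 0 in APOE3 females.

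The difference of the nPM response between APOE3 males and APOE3 females was tested across 15958 genes in a fit of all 32 APOE-TR mice. It gave 818 genes (5.13%) at a limma p under 0.005, 347 of them higher in males (2.17%) and 471 lower (2.95%), and 5373 (33.7%) under 0.05. None passed 5% FDR, and the smallest adjusted p was 0.0921. Without TMM rescaling the split was 450 higher and 372 lower. Single mice changed the count. It was 3939 without female control 52, 2840 without female control 63 and 3054 without female nPM 55, and 277, 321, 264 and 250 without female control 61, control F6, nPM 59 and nPM 67. Without female control 52, control 63 or nPM 55, 5961, 4588 and 4959 genes passed 5% FDR. Without male control 51, nPM 53, nPM 56 and nPM 76 it was 433, 495, 523 and 477.

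Of the 24 called genes tested, 13 were under 0.05 and 5 under 0.005 for this difference, against 33.7% and 5.13% of all genes. They were chosen on the same APOE3 males that enter the difference, so these counts are no test. Hhat, -0.39 in males, was at 0.16 in females, a difference of -0.55 ± 0.14 (95% interval -0.84 to -0.26, adjusted p = 0.0921). Melk was at -0.51 and 0.15 (difference -0.67 ± 0.19), and Tinagl1 at 0.61 and -0.19 (difference 0.81 ± 0.24), with the same adjusted p. Opalin was lower in both sexes, at -0.45 in males and -0.66 in females, with a difference of 0.21 ± 0.27 (95% interval -0.35 to 0.77). Vwf and Gli2, at 0.64 and 0.67 in females, had differences whose intervals also held 0.

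In the chaperone list most genes had a more positive change in males than in females. The APOE3 males in which all 20 genes were higher enter these differences, so the counts of differences are a description and no test. In APOE3 females 5 of its 20 genes were higher (49.7% of all genes), with a median of -0.22, and 4 were lower and 2 higher at under 0.05, against 10.1% and 10.9% of all genes. Of the 20 differences, males minus females, 19 were above 0 (50.1% of all genes, median 0.36), with 11 under 0.05 and 3 under 0.005, against 15.4% and 2.17% of all genes in that direction. These were Hspe1 (0.17 in males, -0.75 in females, difference 0.92 ± 0.27), Sdf2l1 (0.55 and -0.51, difference 1.07 ± 0.33) and Dnajb9 (0.08 and -0.47, difference 0.54 ± 0.18). All 3 had an adjusted p of 0.0921. Hspa5 was at 0.40 and -0.29, a difference of 0.69 ± 0.26 (adjusted p = 0.0949), and Hyou1, at 0.24 and 0.49, was the only gene of the list with a difference below 0. Hspa1b (0.55 in males and 0.44 in females) and Hspa1a (0.43 and 0.41) were higher in both sexes and were the 2 genes of the list that were higher at under 0.05 in females.

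Genes with the smallest p for this difference, 3 higher and 2 lower in males, had larger changes in females than in males. Grap (0.15 in males and -0.64 in females), Msrb2 (-0.02 and -0.55) and Timp3 (0.18 and -0.45) had differences of 0.80, 0.53 and 0.62. Slc27a2 (-0.27 and 0.43) and Nxf7 (-0.29 and 0.67) had differences of -0.70 and -0.95. All 5 had an adjusted limma p of 0.0921. Timp3, a matrix metalloproteinase inhibitor, and Slc27a2, a fatty acid carrier, were also under 0.05 in males alone.

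For the difference between APOE3 and APOE4 males the SE had a median of 0.185, against 0.0914 and 0.0852 in the fits of each group alone. Of 15958 genes 5 (0.0313%) were under 0.005, all with a more positive change in APOE3 males, 140 (0.877%) were under 0.05 and none passed 5% FDR in limma (smallest adjusted p 1). The count was 17 without APOE3 nPM 53, 11 without APOE3 control 63 and 8 to 9 without APOE3 nPM 58, APOE4 control 91, APOE4 nPM 23 or APOE4 nPM 33. The smallest p were those of Fut11, a fucosyltransferase (0.22 in APOE3 and -0.13 in APOE4 males, difference 0.35), Six4, a homeobox factor (0.34 and -0.39, difference 0.73), and Gm2762 (0.28 and -0.21, difference 0.49). In the other direction none was under 0.005, and AW822252 (-0.47), Crlf2, a cytokine receptor (-0.56), and Gm1673 (-0.69) had the smallest p.

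Of the 24 called genes tested for the difference between the alleles, 7 were under 0.05 and 1 under 0.005, against 0.877% and 0.0313% of all genes. Since the same APOE3 males chose the genes, these counts too are a description. The gene under 0.005 was E030013I19Rik, at 0.30 in APOE3 and -0.32 in APOE4 males (difference 0.63 ± 0.18, adjusted p = 1). Maff was at 0.50 and -0.06 (difference 0.56 ± 0.21, 95% interval 0.14 to 0.98). Hspb1, at 0.78 and 0.03, had a difference of 0.76 ± 0.38 whose 95% interval ran from -0.02 to 1.54. Slc2a1, at 0.32 and 0.19, had a difference of 0.13 ± 0.13. In the chaperone list 1 of 20 genes was higher in APOE4 males (51.8% of all genes, median -0.15). All 20 differences were above 0 (49.7% of all genes, median 0.31), with 6 under 0.05 (0.432% of all genes) and none under 0.005 in limma. All 20 genes were also higher in the APOE3 males that enter these differences, so the counts of differences are no test. The 3 groups compared here share no mice in their own fits, and differences were taken from a fit in which the 8 APOE-TR groups share 1 estimate of spread.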

How the data were processed

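RNA of 48 mouse cortices was sequenced, and the 8 APOE3 males entered the fits of the exposure. The authors made stranded TruSeq mRNA libraries, mapped reads to mm10 with TopHat2 2.0.8b and processed them in Partek, per the submitters' processing notes, and deposited CPM per gene and mouse. The authors' code rescales a gene table by TMM before voom, and how the deposited CPM were scaled is not given in the sources used here. Of values up to 20 times the lowest value of a mouse, 96.22% to 96.86% were within 0.1 of a whole multiple of it, so reads were recovered as the value divided by the lowest value, less 1. On those reads edgeR's quasi-likelihood test called 26 genes and DESeq2 35 at p under 0.005. The design named limma on CPM, and the deposited unit was CPM.

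Of 18943 listings 4 with a repeated symbol were left out, and all columns of values were matched to a sample or group (0 unmatched). The column called control F6 here, of an APOE3 female, was matched to its group only. Values were rescaled by TMM (edgeR 4.0.16), 0.5 CPM was added, and log2 values were tested with limma 3.58.1 (lmFit, eBayes with a trend) in R 4.3.3, with Benjamini-Hochberg adjustment over all genes tested. A value under 1.5 times the lowest was counted as no read. Differences of response were contrasts of the 8 APOE-TR groups. Two-sided exact permutation tests used 70 labelings, with a smallest p of 0.0286. Errors after ± are limma SE. P-values measure only the spread between these mice. Intervals are 95%. The fits were tested on simulated data.

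Genes named are the 10 increased and 10 decreased genes with the smallest p, genes the paper names, members of lists under p = 0.05 (or with the smallest p in a list with none), label checks, the 3 genes in each direction with the smallest p for each difference, and leading markers. Of these, 1 gene is not reported here. The other 5 called genes (E030013I19Rik, Notch4, Ccm2l, Odf3l2, Vwf) and the other members of lists that are named were chosen after their values were seen. Members and lists were chosen with earlier results of these data known, and the 4 lists called further were added after seeing these values. Alternatives were DESeq2's size factors (DESeq2 1.42.0), no TMM, pseudocounts, filters, voom, sample quality weights, count tests, spread shared over 32 mice or only the 4 groups compared, and each mouse left out. Added after seeing the data were another limit for a read, control 63 and nPM 76 left out together, and the counts over lists. Promoters are from RefSeq (GRCm38.p6), and gene positions are those in the deposited table.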

Additional observations from a re-analysis of the deposited data

Results flagged for a closer look

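Each group of 4 mice was checked for a mouse standing apart from the other 3, in the called genes and in the marker sums. Of 96 groups 9 were flagged, and chance flags about 1 in 20. Choroid plexus markers summed to 1043 CPM in nPM 76, against 17.72 to 22.22 CPM in the other nPM mice, and striatal markers to 1525 CPM in control 63, against 871.1 to 929.9 CPM in the other controls. Microglia markers summed to 272.5 CPM in control 73, against 255.1 to 256 CPM in the other controls. Among called genes, Vwf was at 9.08 CPM in nPM 56 (others 6.46 to 6.61) and Gldn at 1.64 CPM in control 63 (others 1.2 to 1.25). Melk was at 0.334 CPM in nPM 76 (others 0.637 to 0.681) and 2310002D06Rik at 0.167 CPM in the same mouse (others 0.351 to 0.377). Snora73a was at 0.435 CPM in nPM 53 (others 0.278 to 0.294) and Pde6g at 0.0908 CPM in control 55 (others 0.056 to 0.0595).

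The response to nPM differed between APOE3 males and APOE3 females at an unadjusted limma p under 0.005 for 8 genes that were called in males or belong to the chaperone list, each with an adjusted p of 0.0921. On the log2 scale, males minus females, the differences were -0.55 for Hhat, -0.67 for Melk, -0.53 for Fbxl13, 0.92 for Hspe1, 0.81 for Tinagl1, 1.07 for Sdf2l1, 0.54 for Dnajb9 and -0.66 for Adgb. Between APOE3 and APOE4 males it differed for E030013I19Rik, by 0.63 (limma adjusted p = 1). The called genes were chosen on these APOE3 males and the chaperone list was higher in them, so the counts of differences are a description.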

How the results depend on the processing

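The 26 called genes kept the sign of their change under every alternative in which they were tested, and each stayed under an unadjusted limma p of 0.05 with any mouse left out. Fewer stayed under 0.005, from 8 to 16 of them with a mouse left out and 5 without control 63 and nPM 76 together, and only Pde6g and Hhat did so whichever mouse was left out. With a mouse left out, 12 to 73 genes were under 0.005. There were 12 without control 73, 73 without nPM 53, 13 without nPM 56 and 16 without nPM 76. Sample quality weights gave 49 and the spread shared over 32 mice 14, and of the 26 called genes 20 and 10, respectively, stayed under 0.005. The split of 16 higher and 10 lower calls was 16 and 19 without a filter, 15 and 3 with at least 10 reads, 28 and 7 in DESeq2, and 11 and 17 without control 63 and nPM 76. No setting gave a gene at 5% FDR for the exposure.

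For the difference from APOE3 females (818 genes) sample quality weights gave 3827, with 5221 at 5% FDR, the 4 groups alone gave 110, and leaving out a mouse gave 250 to 3939. For that from APOE4 males (5 genes) no filter gave 13, at least 10 reads 3, sample quality weights 59, the 4 groups alone 15, and leaving out a mouse 4 to 17. Of 8 chaperone genes under 0.05, 1 was left without control 63 and nPM 76, and 2 to 14 with a mouse left out. Jun, at 0.08, was at -0.01 (-0.014) without these 2 mice. The causes were not tested. Of the other values for single genes and lists 642 kept their side of the threshold, 102 lost it and 10 gained it, and 14 moved.

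Of 14 genes that the paper names and that had a limma p above 0.5 here (log2 -0.25 to 0.06), none was under 0.005 in any setting, and 12 changed sign in at least 1 of 21 settings. The 95% interval of a change, on the scale of log2(CPM + 0.5), reached at the median 0.242 to either side for genes under 1 CPM. It reached 0.247 for those at 1 to 10 CPM and 0.156 above. The added 0.5 CPM narrows the intervals of genes under 1 CPM as it does their changes, so their width does not show equal precision. These widths are medians over genes. Changes whose own interval held 0 were not told from 0, and the intervals were not adjusted for the number of genes tested. No paired analysis was possible because the animal numbers are not shared between the 2 groups compared.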
